A study of Zea mays with 12 samples.

Results

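The genes described here are cycD1, a D-type cyclin gene by its symbol, and MCM6, a gene of the replicative DNA helicase, in immature ears of maize. All probe sets that the platform's annotation assigns to either gene were taken, by symbol or synonym: 1 probe set for cycD1 (Zm.10263.1.S1_at, gene model GRMZM2G006721) and 3 for MCM6 (Zm.3169.4.S1_a_at, Zm.3169.5.S1_a_at and Zm.3169.5.S1_x_at, gene model GRMZM2G021069), 4 of 17621 on the array and 2 of the 1096 genes that the annotation names there. All 4 passed the filter on low signal, as did 11126 of the 17621. Signals are MAS5 intensities, 1 value for each probe set and array, scaled here so that all arrays had the same median. They have no absolute unit, so a level was not read against that of another probe set, and ratios between probe sets were used only for their shift between genotypes. Sums over marker probe sets are likewise given only to compare genotypes.

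Ears came from 4 genotypes grown in the field: the inbred lines B73 and Mo17, the hybrid B73xMo17 and its reciprocal Mo17xB73, in which by maize convention the first name is the seed parent. Each genotype had 3 biological replicates on 1 array each, and each replicate pooled 6 ears of 3.7 to 5.4 mm from which husk and silk had been removed. The spread between arrays is therefore a spread between pools and not between single ears. In pooled tissue, fewer cells of a type and less transcript per cell cannot be told apart. The design asks how far the inbreds differ and whether hybrids lie at the mean of their parents.

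A D-type cyclin activates a cyclin-dependent kinase in the first gap phase of the cell cycle. This kinase phosphorylates retinoblastoma-related proteins, which otherwise hold back E2F transcription factors and the S-phase genes they activate. MCM6 encodes a subunit of the ring-shaped MCM helicase, which is loaded on replication origins by the origin recognition complex before S phase and unwinds DNA ahead of the polymerases. The young ear is made largely of meristems and of spikelets and florets that are being formed, so dividing cells are abundant in it.

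The arrays differed in brightness, with a median signal as deposited between 123 (Mo17 replicate 1) and 231 (B73 replicate 2). After scaling, the median B73 minus Mo17 difference over the 11126 probe sets was -0.05 on the log2 scale, against 0.28 as deposited. Tests on values as deposited also differ in their spread model, in which a probe set's own spread had no weight. All 9 probe sets of 8 inflorescence and floral identity genes passed the filter, at a median signal percentile of 70.7. Of the probe sets of other tissues, 6 of 16 for endosperm, 0 of 3 for pollen or anther and 7 of 9 for leaf or husk passed. The summed signal of the leaf or husk probe sets ranged from 1281 to 1897 in B73, from 1827 to 1959 in Mo17, from 1547 to 1876 in B73xMo17 and from 1647 to 1726 in Mo17xB73, and that of the inflorescence probe sets from 7499 to 8688, from 6424 to 7214, from 7632 to 8056 and from 8155 to 8445 in the same order. Each sum follows its brightest probe sets and hides members that differed in opposite directions. Mean scaled signals in B73 and Mo17 were 604 and 1028 for Cab-m7, but 217 and 116 for a probe set of Ppdk1. In the inflorescence list they were 1468 and 2387 for kn1 and 178 and 388 for zag2. The means of ZMM2 (300 and 64.2) and ZAG3 (1613 and 981) went the other way. The part of these marker probe sets in the results for cycD1 and MCM6 was not tested.

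The cycD1 signal was much higher in B73 than in Mo17, and both hybrids lay between them. No probe sequences were at hand, so whether the probes match Mo17 transcripts as well as those of B73 was not tested. A lower signal in Mo17 therefore need not mean less transcript. The scaled signals of the B73 arrays were 193.8, 332 and 193.9. Those of the Mo17 arrays were 9.80, 51.0 and 36.2, of which the first lay below the floor of 12.2 that was applied to all low signals. B73xMo17 gave 124, 145 and 132, and Mo17xB73 gave 149, 132 and 168. Every B73 array was above every hybrid array, and every hybrid array was above every Mo17 array, while the arrays of the reciprocal hybrids overlapped. B73 replicate 2 stood above the other B73 arrays.

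Averaged by genotype, B73 had a cycD1 signal of 240 ± 79.8 (SD, n = 3), Mo17xB73 of 150 ± 18.2, B73xMo17 of 134 ± 10.5 and Mo17 of 33.1 ± 19.6. The probe set ranked between the 16.6th and the 65.6th percentile of its array, with a median of 47.6. B73 exceeded Mo17 by 3.04 ± 0.39 on the log2 scale (SE; limma adjusted p = 2.63e-05), an 8.21-fold difference with a 95% interval from 4.57 to 14.7. Of the 11126 probe sets tested, 19.5% passed as higher in B73 and 21.5% as lower, and 1.91% were at least 8-fold higher in B73. The size of the fold rests on the low Mo17 signals. It was 5.40-fold without Mo17 replicate 1, 2.86-fold with the floor at the 40th percentile of signal and 5.54-fold with no floor and 16 added to each signal, and the call held under each.

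**Figure D1:**
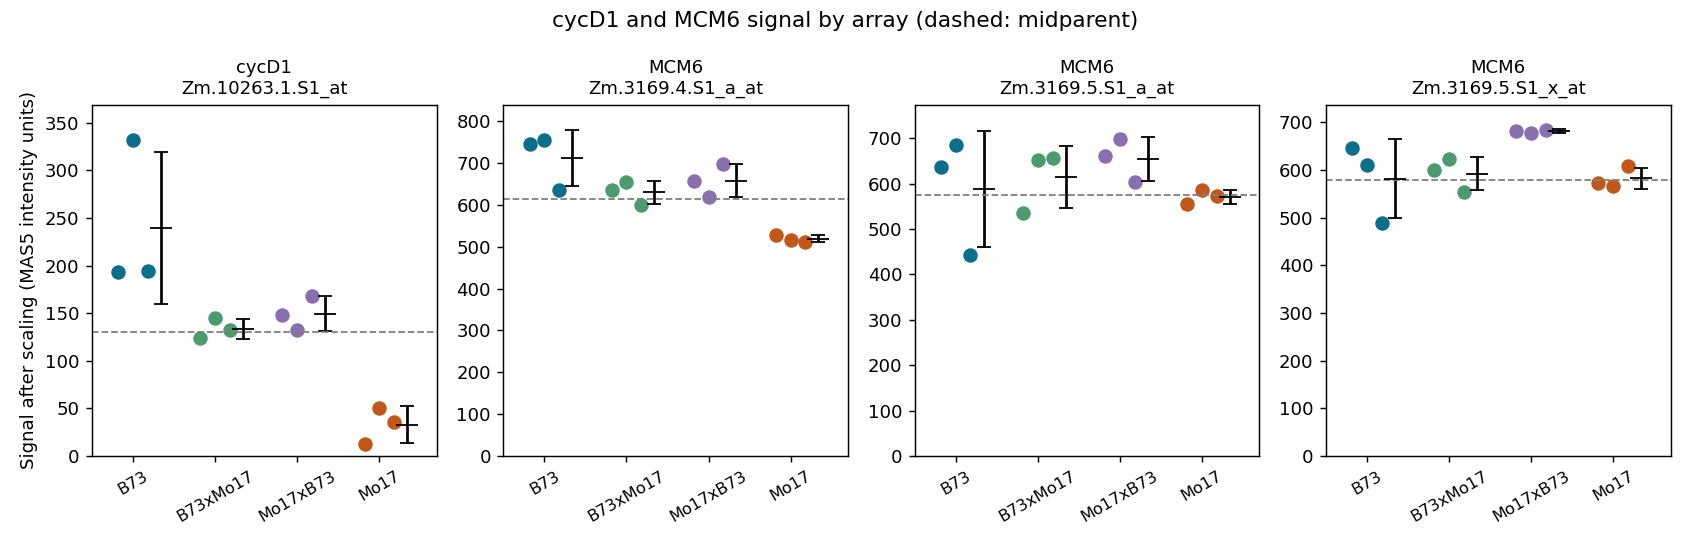
Scaled signal (vertical axis, MAS5 intensity units, from 0) of the cycD1 probe set and the 3 MCM6 probe sets on each of the 12 arrays, by genotype (horizontal axis). Points are arrays, with values below the floor set to it, bars are the mean and SD of 3 arrays, and the dashed line is the midparent. For cycD1 the Mo17 arrays lie below all others and the hybrids near the line, while B73 and Mo17 are separated in 1 of the 3 MCM6 probe sets.

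MCM6 gave a divided picture, in which 1 of its 3 probe sets was higher in B73 than in Mo17. Zm.3169.4.S1_a_at had scaled signals of 746, 755 and 636 in B73 and of 528, 517 and 512.5 in Mo17. In B73xMo17 it was at 635, 656 and 601, and in Mo17xB73 at 657, 619 and 697.5. All Mo17 arrays lay below all 9 other arrays, and the hybrid arrays overlapped with the lowest B73 array. B73 exceeded Mo17 by 0.45 ± 0.08 on the log2 scale (SE; limma adjusted p = 0.000619), a 1.37-fold difference with a 95% interval from 1.21 to 1.55. Of all probe sets tested, 49.4% had arrays that did not overlap between B73 and Mo17, and 27.2% between the hybrids together and Mo17. The share with Mo17 apart from all 9 other arrays was not computed.

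The other probe sets of MCM6 did not separate the inbreds. Zm.3169.5.S1_a_at was at 635, 685.5 and 442.5 in B73 and at 555, 586.5 and 571.5 in Mo17, so that the B73 arrays spanned the Mo17 range. Its log2 difference was 0.02 ± 0.14 (SE; limma adjusted p = 0.936), and the 95% interval of the fold ran from 0.821 to 1.25. Zm.3169.5.S1_x_at was at 646, 610.5 and 488 in B73 and at 572, 567 and 609 in Mo17. Its log2 difference was -0.01 ± 0.10 (adjusted p = 0.936, fold interval from 0.857 to 1.15). Both probe sets carry the same source sequence in the annotation, and the suffix x marks probes that may also match other transcripts, so they are not independent measures of MCM6.

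In the hybrids these 2 probe sets reached their highest means in Mo17xB73. Zm.3169.5.S1_a_at was at 536, 652 and 657 in B73xMo17 and at 661, 698 and 602 in Mo17xB73. Zm.3169.5.S1_x_at was at 601, 624 and 554 in B73xMo17 and at 683, 678 and 685 in Mo17xB73, where all 3 arrays lay above the 9 others. The share of all probe sets with Mo17xB73 apart from the 9 others was not computed. Its arrays did not overlap with those of B73 in 30.7% of all probe sets, Mo17 in 35.1% and B73xMo17 in 9.18%. By genotype, B73 had a mean of 582 ± 83.0 for it (SD, n = 3), Mo17 of 583 ± 22.7, B73xMo17 of 593 ± 35.5 and Mo17xB73 of 682 ± 3.73. The difference of Mo17xB73 from the midparent was 0.23 ± 0.08 on the log2 scale and did not pass (limma adjusted p = 0.287). The 3 MCM6 probe sets ranked at a median of the 79.0th to 79.7th percentile of signal and so were measured well above the floor on every array.

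Whether the MCM6 probe sets differed from each other was tested within arrays, where the scaling cancels. The log2 ratio of Zm.3169.4.S1_a_at over Zm.3169.5.S1_x_at was 0.21, 0.31 and 0.38 in B73 and -0.11, -0.13 and -0.25 in Mo17. The means differed by 0.46 on the log2 scale, and the arrays did not overlap (two-sided exact permutation test, p = 0.1, the smallest that 3 arrays against 3 allow). Over Zm.3169.5.S1_a_at the ratio was 0.23, 0.14 and 0.52 in B73 and -0.07, -0.18 and -0.16 in Mo17, a difference of 0.43 (exact permutation p = 0.1). Both differences in mean ratio follow from the log2 differences of these probe sets given above, on the same arrays, and are no separate result. Over Zm.3169.5.S1_x_at the hybrid ratios ran from 0.07 to 0.12 in B73xMo17 and from -0.13 to 0.03 in Mo17xB73, all below the B73 arrays, while Mo17xB73 overlapped with Mo17. Over Zm.3169.5.S1_a_at they were 0.24, 0.0084 and -0.13 in B73xMo17 and -0.0085, -0.17 and 0.21 in Mo17xB73, so that both hybrids overlapped with B73 and with Mo17. Unequal change between probe sets of a gene does not say which of them follows its transcript.

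The array holds 4 further probe sets with the cluster number of MCM6, which the annotation used here gives no gene. Over all probe sets tested, 19.5% passed as higher in B73 than in Mo17, and 49.4% had arrays that did not overlap between them. Zm.3169.1.S1_at was higher in B73 (1291 ± 32.1, SD, n = 3) than in Mo17 (1109 ± 99.4), by 0.22 ± 0.08 on the log2 scale (SE; limma adjusted p = 0.0479), a call that was lost as deposited (adjusted p = 0.0746). Zm.3169.3.S1_at and Zm.3169.3.S1_x_at had differences of 0.18 and 0.15 (adjusted p = 0.111 and 0.136), with arrays that did not overlap between the inbreds, and Zm.3169.2.S1_at had 0.08 (adjusted p = 0.6). The last was closest to Zm.3169.5.S1_x_at: after centring each on its own mean, they differed by a root mean square of 0.06 on the log2 scale over the 12 arrays, against 0.15 between Zm.3169.2.S1_at and Zm.3169.4.S1_a_at. The profile closest to Zm.3169.1.S1_at was that of Zm.3169.3.S1_at (0.08), which in turn was closest to Zm.3169.3.S1_x_at (0.06).

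**Figure D2:**
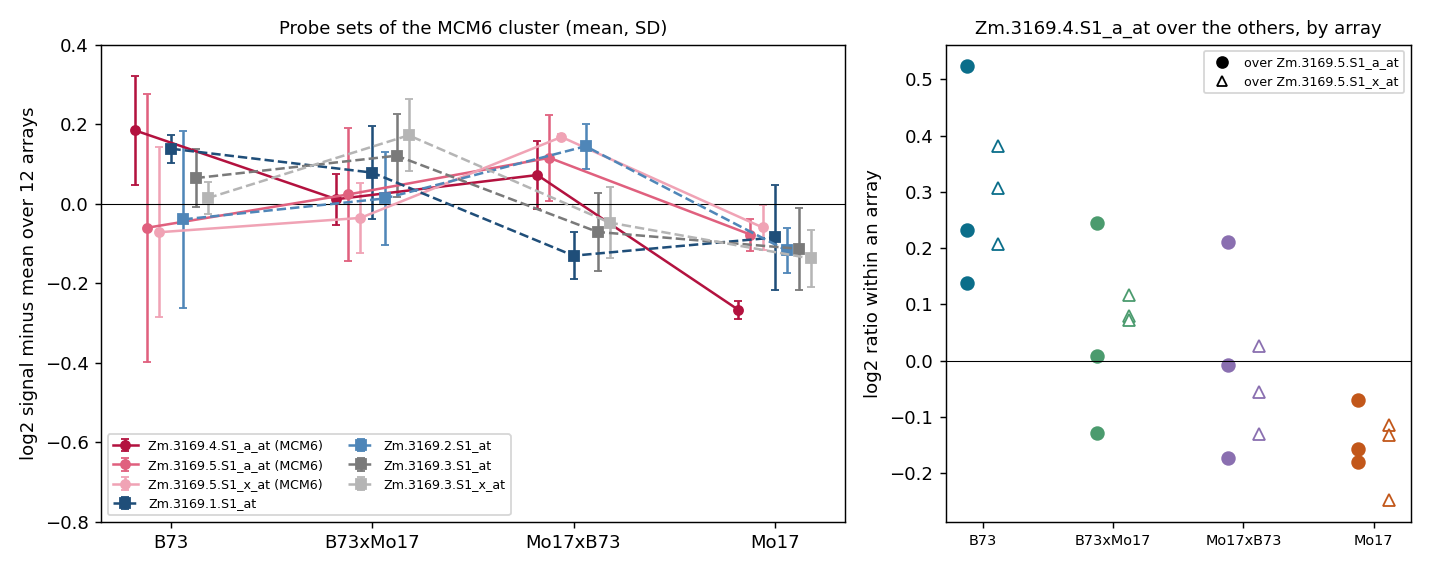
Left, log2 scaled signal of the 7 probe sets of the MCM6 cluster minus each probe set's own mean over 12 arrays (vertical axis), by genotype, as mean and SD of 3 arrays, with the 3 probe sets annotated as MCM6 drawn solid. Right, log2 ratio within each array of Zm.3169.4.S1_a_at over the other MCM6 probe sets. Zm.3169.4.S1_a_at has the lowest Mo17 value of the 7 profiles, and both of its ratios are higher on all B73 arrays than on all Mo17 arrays. The place of a ratio relative to 0 has no meaning.

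The other cell cycle genes examined did not share the higher level of cycD1 in B73. The list held 18 other genes with 22 probe sets, of which 20 probe sets passed the filter, and none was higher in B73, while 5 were lower (limma, adjusted p under 0.05). Over all probe sets tested 41% passed in either direction, and 48.4% had an unadjusted p under 0.05, as 5 of the 20 did. As deposited, 0 of the 20 passed in limma, with 3 at an unadjusted p under 0.05, against 25.6% and 34.9% of all probe sets. The median difference of the 20 was -0.08 on the log2 scale after scaling and 0.25 as deposited, beside -0.05 and 0.28 over all probe sets. The 5 lower calls were made only after scaling. Calls over all probe sets split into 2170 higher and 2391 lower after scaling and 2282 higher and 564 lower as deposited.

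Among cyclins, kinases and their regulators, 1 of 10 other probe sets passed after scaling, beside 41% of all probe sets. The second D-type cyclin gene of the array, cycD2, was level, at 524 ± 75.7 in B73 (SD, n = 3) and 525 ± 36.3 in Mo17 (log2 difference -0.01, fold interval from 0.85 to 1.16). RBR2, a retinoblastoma-related gene and so of the class that D-type cyclin kinases act on, was lower in B73 by 0.67 on the log2 scale after scaling (73.9 ± 3.40 against 118 ± 12.6; limma adjusted p = 0.00293; as deposited adjusted p = 0.442). Its relative RBR1 gave 0.30 and -0.14 in its 2 probe sets (adjusted p = 0.104 and 0.494). The cyclin-dependent kinase gene cdc2 gave 0.17 and -0.01, the mitotic cyclin genes cyc1, cyc2 and cyc3 gave -0.12, -0.09 and -0.07, and wee1, encoding a kinase that restrains cyclin-dependent kinases, gave -0.11. None of these passed, and as deposited all of them were above 0, at 0.20 to 0.63.

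Of the 7 other DNA replication genes, each with 1 probe set, 3 passed, all lower in B73 after scaling. Over all probe sets, 41% passed in either direction and 21.5% as lower in B73. The level of pcna2, encoding the sliding clamp of DNA polymerase, was 2414 ± 280 in B73 (SD, n = 3) and 3660 ± 179 in Mo17, which is -0.61 ± 0.09 on the log2 scale (SE; limma adjusted p = 0.000142). The origin recognition genes orc2 (137 ± 10.9 against 213 ± 48.4, -0.61, adjusted p = 0.0126) and orc4 (197 ± 7.29 against 242 ± 12.8, -0.30, adjusted p = 0.0294) passed as well, and orc1 (-0.08) and orc3 (0.15) did not. As deposited, none of the 3 passed (adjusted p from 0.359 to 0.932), and the sign of orc4 turned, to 0.04.

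The helicase partner of MCM6 on the array, MCM7, was at 654 ± 106 in B73 (SD, n = 3) and 656 ± 80.5 in Mo17, a log2 difference of -0.01, and the first clamp gene, PCNA, was at 1338 ± 194 and 1362 ± 156, a difference of -0.03. The fold intervals were 0.832 to 1.19 for MCM7 and 0.806 to 1.19 for PCNA, which do not reach the 1.37-fold of Zm.3169.4.S1_a_at. After scaling, B73 replicate 3 was the lowest B73 array on all 6 MCM and PCNA probe sets, those of MCM6 included, which are not independent measures. Over the 20 other cell cycle probe sets, with MCM7, PCNA and pcna2 among them, it was the lowest for 6. Among 3 probe sets of mitosis genes that passed the filter, cenH3, encoding the centromeric histone H3, was lower in B73 after scaling (-0.34, limma adjusted p = 0.0114; -0.01 as deposited, adjusted p = 0.981), and CenpcA (-0.17), of the inner kinetochore, and mad2 (0.18), of the spindle checkpoint, did not pass. Of the arrays, replicate 1 was the lowest of its genotype for 14 of the 20 probe sets in Mo17 and for 14 in Mo17xB73, with a median deviation from the genotype mean of -0.17 and -0.11 on the log2 scale. Mo17xB73 replicate 3 was the highest of its genotype for 14 of the 20, with a median deviation of 0.14. The share of all probe sets with a given array lowest or highest of its genotype, B73 replicate 3 included, was not computed. Whether these array patterns are particular to cell cycle genes was therefore not tested.

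**Figure D3:**
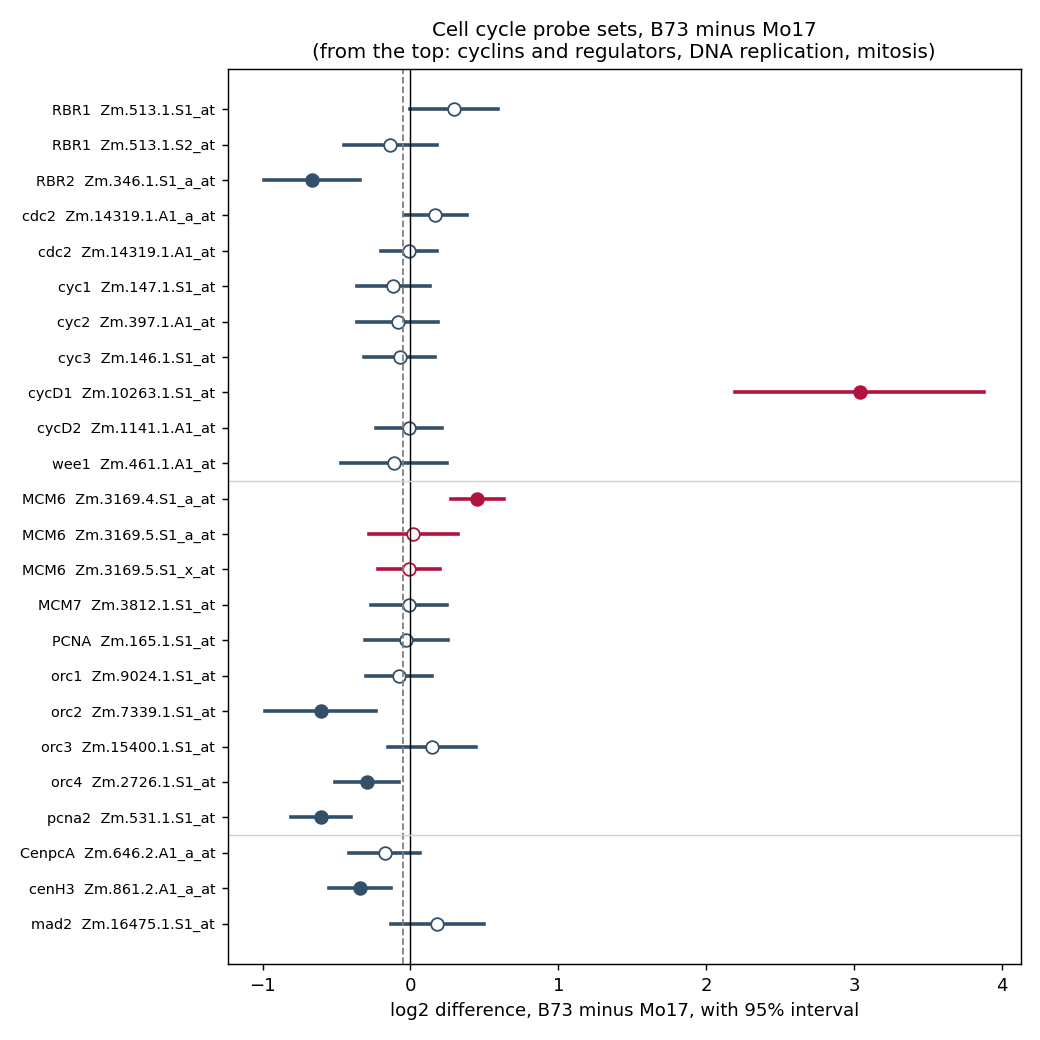
Difference between B73 and Mo17 on the log2 scale after scaling (horizontal axis, B73 minus Mo17) for the 24 cell cycle probe sets tested, with 95% intervals. Filled points passed at an adjusted p under 0.05, red marks cycD1 and MCM6, and the dashed line is the median of all 11126 probe sets. cycD1 stands alone at 3.04, and the filled points to the left of 0 are RBR2, orc2, orc4, pcna2 and cenH3.

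The hybrids were next set against the midparent, the log2 of the mean parental signal on the linear scale. This comparison and those with each parent use the same parental arrays as the comparison of the inbreds. For cycD1 the midparent signal was 130, computed from fitted means of 232 in B73 and 28.2 in Mo17, and the mean hybrid was at 141. The log2 difference was 0.12 ± 0.32 (SE; limma adjusted p = 0.913), and the fold interval ran from 0.676 to 1.74. B73xMo17 alone differed from the midparent by 0.04 and Mo17xB73 by 0.20 (adjusted p = 0.983 and 0.911). On a linear scale on which the midparent is 0, B73 is 1 and Mo17 is -1, the mean hybrid lay at 0.11, B73xMo17 at 0.03 and Mo17xB73 at 0.19.

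Against the parents, cycD1 in the mean hybrid was higher than Mo17 by 2.32 ± 0.34 on the log2 scale (SE; limma adjusted p = 0.000168), a 4.99-fold difference with an interval from 3.01 to 8.29. This size too rests on the low Mo17 signals: the log2 difference was 1.72 without Mo17 replicate 1 and 0.80 with the floor at the 40th percentile, and it passed in both. Of all probe sets, 25.5% passed in this comparison, and 27.2% had arrays that did not overlap, as those of cycD1 did not. Each hybrid also exceeded Mo17 on its own, B73xMo17 by 2.24 (adjusted p = 0.000958) and Mo17xB73 by 2.40 (adjusted p = 0.000537), in comparisons that 19.7% and 21.1% of all probe sets passed. Against B73 the mean hybrid had a fold of 0.608 (-0.72 ± 0.34 on the log2 scale), which did not pass (adjusted p = 0.169), although the 6 hybrid arrays and the 3 B73 arrays did not overlap. Of all probe sets 23% did not overlap in this comparison and 19.2% passed. Neither B73xMo17 (-0.80, adjusted p = 0.217) nor Mo17xB73 (-0.64, adjusted p = 0.326) passed against B73 alone, where 14% and 15.3% of all probe sets did. This call changed with the setting: it passed as deposited (adjusted p = 0.00199), with the floor at the 40th percentile (adjusted p = 0.0053) and without Mo17 replicate 1 (adjusted p = 0.0121). In the test as deposited, the spread of cycD1 itself had no weight. The order of levels for cycD1 was thus B73, Mo17xB73, B73xMo17 and Mo17, in which the step down to Mo17 passed, the step from B73 to Mo17xB73 did not, and the hybrids did not differ from each other beyond their spread (-0.16 ± 0.39).

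For MCM6, Zm.3169.4.S1_a_at was higher in the mean hybrid than in Mo17 by 0.31 ± 0.07 on the log2 scale (SE; limma adjusted p = 0.00617; 0.39 and adjusted p = 0.367 as deposited), by 0.28 in B73xMo17 and 0.34 in Mo17xB73 (adjusted p = 0.0313 and 0.01). It differed from B73 by -0.14 ± 0.07 (adjusted p = 0.2) and from the midparent by 0.07 ± 0.06 (adjusted p = 0.701; fold interval from 0.958 to 1.14). Its hybrid position was 0.30 on the linear scale defined above. The order of levels after scaling was B73, Mo17xB73, B73xMo17 and Mo17. The last step passed after scaling but not as deposited, and the steps above it passed in neither. Zm.3169.5.S1_a_at and Zm.3169.5.S1_x_at were each 0.13 to 0.15 on the log2 scale above B73, Mo17 and the midparent, and none of these differences passed (adjusted p from 0.294 to 0.601).

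Of the other 20 cell cycle probe sets, pcna2 (0.40, limma adjusted p = 0.00337) and cenH3 (0.25, adjusted p = 0.0495) were higher in the mean hybrid than in B73 after scaling, as were 9.71% of all probe sets, and none passed as deposited. Against Mo17 none of the 20 passed in limma after scaling, with 4 at an unadjusted p under 0.05, beside 36.5% of all probe sets.

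Of the 24 cell cycle probe sets tested, 0 passed against the midparent in limma, where 1.29% of all probe sets passed for the mean hybrid, 0.18% for B73xMo17 and 1.09% for Mo17xB73. At an unadjusted p under 0.05 there were 3, beside 13% of all probe sets, namely MCM7 (0.20), mad2 (0.25) and 1 of the 2 cdc2 probe sets (0.16), all with the hybrid above the midparent. They are named after their values were seen, and their adjusted p ran from 0.27 to 0.327. As deposited, 0 of the 24 had an unadjusted p under 0.05 in limma, beside 4.75% of all probe sets. The median difference of the 24 was 0.06 on the log2 scale after scaling and -0.05 as deposited. Of all probe sets 89 were higher and 55 lower in the mean hybrid after scaling, and 29 and 58 as deposited. The reciprocal hybrids gave 0 calls over all 11126 probe sets in limma after scaling, which is 0%, with 288 (2.59%) at an unadjusted p under 0.05, and none of the 24 cell cycle probe sets was among those 288. Of the unnamed probe sets in the MCM6 cluster, Zm.3169.1.S1_at, Zm.3169.3.S1_at and Zm.3169.3.S1_x_at were among them, each above 0 for B73xMo17 minus Mo17xB73 (0.21, 0.19 and 0.22 on the log2 scale), and their arrays did not overlap. None of the differences passed (limma adjusted p = 0.99985 for each). The profiles of these probe sets differ by a root mean square of only 0.06 to 0.11, so they are not taken as independent measures. The MCM6 probe set Zm.3169.5.S1_x_at had arrays that did not overlap between the hybrids, with a difference of the opposite sign (-0.20 ± 0.10 on the log2 scale). The arrays of cenH3 did not overlap either (0.17), and nor did those of 9.18% of all probe sets.

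**Figure D4:**
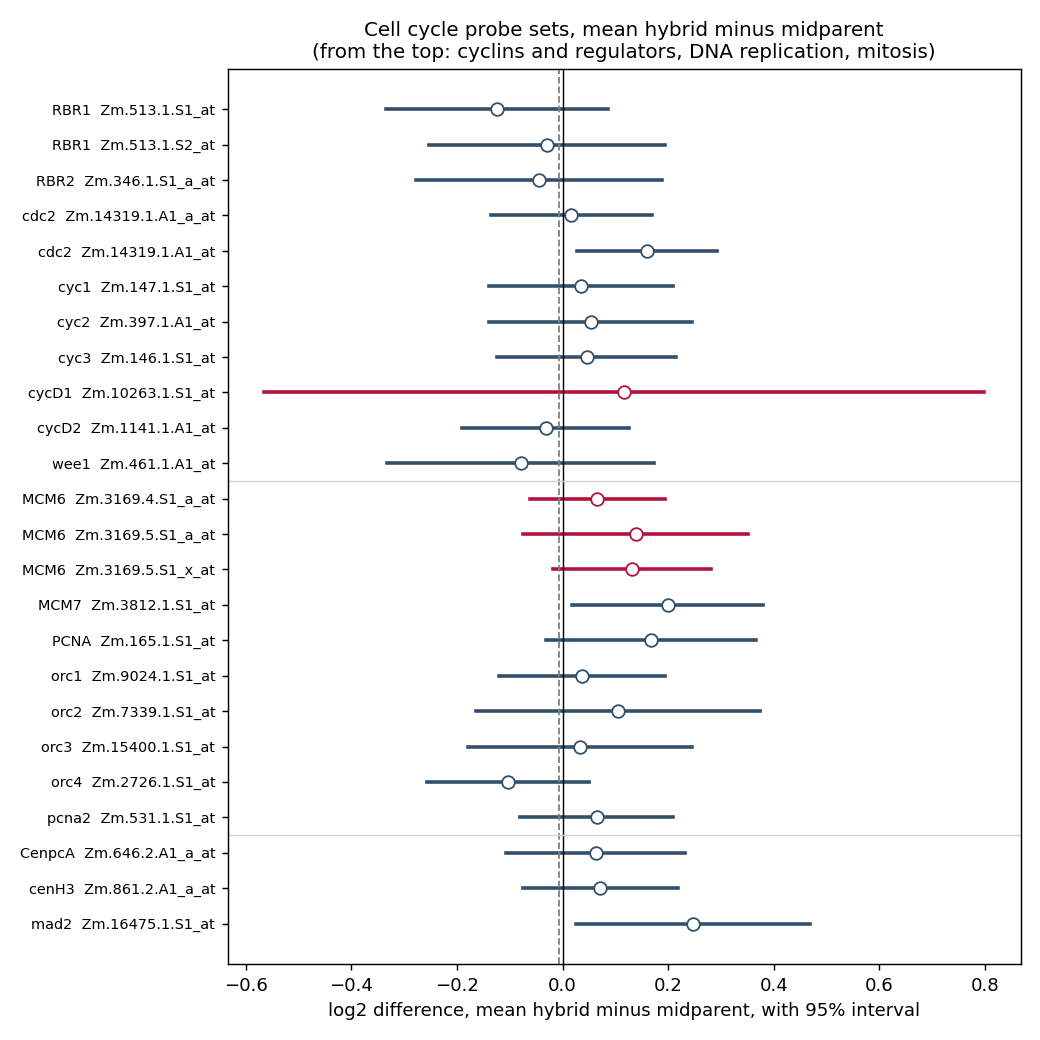
Difference between the mean hybrid and the midparent on the log2 scale after scaling (horizontal axis) for the same 24 probe sets, with 95% intervals, open points for probe sets that did not pass, red for cycD1 and MCM6 and a dashed line for the median of all probe sets. All points are open; cycD1, at 0.12, has the widest interval of the 24.

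The profile of each gene over the 12 arrays was compared with that of 841 other named probe sets that passed the filter, by the root mean square difference of log2 signals after centring each on its own mean. The profiles nearest to cycD1 were IDDveg9 (0.45), the glutathione transferase gene gst12 (0.48), In2-1 (0.50), HMT-2 (0.50) and eif7 (0.53), beside a root mean square of 1.25 for cycD1 about its own mean. All 5 were higher in B73 than in Mo17, by 2.44 to 3.26 on the log2 scale. Nearest to Zm.3169.4.S1_a_at were a probe set of zfp30 (0.09), dps1 (0.09), GNAT17 (0.09), m15 (0.10) and csr1 (0.10), all higher in B73 by 0.27 to 0.65. These profiles were chosen by closeness to the member, so sharing its difference between the inbreds follows from the choice and is no further result.

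The probe sets nearest to Zm.3169.5.S1_a_at were GRF12 (0.11), GRF14 (0.12), dnp2 (0.12), rop9 (0.13) and DrAp1 (0.13). For Zm.3169.5.S1_x_at they were DrAp1 (0.08), ROA (0.11), a second probe set of zfp30 (0.11), nfc103 (0.11) and dnp2 (0.11). None of these 10 entries passed between B73 and Mo17, and their differences ran from -0.10 to 0.07 on the log2 scale. This too follows from the choice by closeness. No cell cycle gene of the list was among the nearest profiles of any of the 4 probe sets. For cycD1 this was fixed by the comparison of the inbreds, where no other list gene had a difference near its size. The list has 20 other probe sets that passed the filter, beside 841 probe sets compared, and only the 5 nearest profiles were kept for each member. Absence from so few places is no result about MCM6. The values are a description of these 12 arrays, which the compared profiles share.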

How the data were processed

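The deposited values were intensities, 1 linear MAS5 signal for each probe set and array, per the submitters' processing notes. Those notes name no version, and the scaling target of MAS5 is not given in the sources read here. The table held 17734 probe sets, of which 113 controls were left out. Gene names came from the platform's annotation (1452 probe sets with 1 gene, 1 with several, 16168 with none listed), and 1377 were matched to RefSeq gene names of Zm-B73-REFERENCE-NAM-5.0. No coordinates of that assembly are given.

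Probe sets above the 40th percentile of their array on at least 3 of 12 arrays were kept (11126). Arrays were scaled to a common median over these. Signals below a floor, the median 20th percentile (12.2), were set to it, and log2 was taken. limma 3.58.1 in R 4.3.3 fitted a mean per genotype to all 12 arrays (lmFit, eBayes with trend, 8 residual degrees of freedom), with Benjamini-Hochberg adjustment over all kept probe sets and a threshold of 0.05. The fit was tested on simulated data. After scaling, the prior degrees of freedom of the spread were at least 5.23. As deposited they were infinite, so that a probe set's own spread had no weight in those tests. Midparent errors followed from the delta method. Scipy 1.17.1 gave exact permutation tests. The number of arrays limits the precision.

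The genes and lists were chosen with earlier results of these data known. Cell cycle genes were found by symbol and synonym; krp symbols, kinesin genes here, were left out and cyc2 and cyc3 added once the annotation had been read. Genes named were all probe sets of cycD1 and MCM6, those of the same cluster, list genes that passed, MCM, D-type cyclin and PCNA genes, and the 5 nearest profiles. The remaining list genes are named to complete each group. The comparisons of each hybrid with each parent were added after the design was set. Alternatives covered scaling, filter, floor, spread model, pairing, midparent and each array left out. Replicate numbers were not taken as a pairing in the main fit, and a fit with them as a block is given below. Deviations from genotype means correlated over 0.1 in 11 of 18 same-numbered pairs (r from -0.09 to 0.46). Of pairs of different number, 6 of 36 did (r from -0.46 to 0.19), so same-numbered arrays were more often alike.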

Additional observations from a re-analysis of the deposited data

How the results depend on the processing

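Between B73 and Mo17, the calls of cycD1 and of Zm.3169.4.S1_a_at held under all 21 alternatives, with log2 differences from 1.51 to 3.46 and from 0.41 to 0.78. With the replicate number as a block, cycD1 differed by 3.04 (limma adjusted p = 1.49e-05) and no call of cycD1 or MCM6 changed. The cause of each change below was not tested.

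As deposited, 2846 probe sets passed between B73 and Mo17, 1351 for the mean hybrid against B73 and 1219 against Mo17, 87 for the mean hybrid and 80 for Mo17xB73 against the midparent, 6 between reciprocals and 0 of the other cell cycle probe sets as lower in B73. Without the filter, 67, 11 and 27 passed against the midparent (mean hybrid, B73xMo17, Mo17xB73) and 2 between reciprocals. In the same order, the floor at the 40th percentile gave 388, 158 and 255, and a midparent of log2 values 806, 536 and 637, with cycD1 in the mean hybrid at 0.80 (adjusted p = 0.119). With 16 added and no floor, 32 passed for B73xMo17. Leaving out 1 array gave 69 to 172, 3 to 32 and 4 to 139, lowest without B73xMo17 replicate 3 for the first and second and without Mo17xB73 replicate 2 for the last, 0 to 2 between reciprocals, and 2 to 5 lower cell cycle probe sets, with 2 without Mo17 replicate 2 and 3 without Mo17 replicate 3.

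For cycD1 and MCM6, signs turned only for differences that passed in no setting, whereas orc4, lower in B73 after scaling, was at 0.04 as deposited. Against the midparent, cycD1 was at -0.11 in the mean hybrid, -0.15 in B73xMo17 and -0.076 in Mo17xB73 as deposited, and at -0.15, -0.23 and -0.072 with the floor at the 40th percentile. For B73xMo17 it was at -0.011 after quantile normalization and from -0.078 to 0.27 with 1 array left out. Zm.3169.4.S1_a_at was at -0.056, -0.045 and -0.067 against the midparent and at 0.022 between reciprocals as deposited, and for B73xMo17 against the midparent from -0.011 to 0.069 with 1 array left out. Zm.3169.5.S1_a_at was at -0.12 for the mean hybrid against B73 as deposited. With 1 array left out it ranged from -0.11 to 0.21 between the inbreds, from -0.0075 to 0.19 for B73xMo17 against the midparent, from -0.062 to 0.25 for the mean hybrid against B73 and from -0.15 to 0.0042 between reciprocals. Zm.3169.5.S1_x_at was at 0.32 between the inbreds, -0.024 for B73xMo17 against the midparent and -0.12 for the mean hybrid against B73 as deposited, and at 0.0084 between the inbreds after quantile normalization. With 1 array left out it ranged from -0.093 to 0.11 between the inbreds and from -0.032 to 0.078 for B73xMo17 against the midparent. The floor limits cycD1 in Mo17, where 1 of 3 arrays was below it, and the spread of 3 arrays limits the rest.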
